A study of Homo sapiens with 8 samples.

Results

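The EGF family ligands and receptors were described in SAS cells, a human line established from a squamous carcinoma of the tongue, after transfection of 3 microRNA mimics. The members were AREG, EREG, HBEGF, TGFA, BTC, NRG1, EGF, EGFR, ERBB2 and ERBB3, chosen by name, and every non-control probe of the array that carried one of these gene names was taken. This gave 18 of 58201 probes and 10 of 43317 gene names. The choice was made with earlier results of these data known. The 4 groups were cells given 25 nM of a miR-629-3p mimic, a miR-210-3p mimic, a miR-874-3p mimic or a negative control RNA (NC), with 2 one-colour arrays in each group and 8 in all. All groups were thus transfected cells, and untransfected cells were not analysed here. The study selected the 3 microRNAs for their association with cisplatin resistance. The sample labels name the cells SAS and give 48 h of culture and a QIAzol and miRNeasy extraction of total RNA, of which 100 ng was used, while the study's methods give SAS/GFP cells (a line carrying a GFP vector), 24 h and an RNeasy kit. No source says that the 2 arrays of a group came from separate cultures, so p-values measure the spread between these samples, which may be technical.

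EGF family ligands are made as membrane-anchored precursors that metalloproteases cut free, after which they bind receptors on the same or neighbouring cells. EGFR binds AREG, EREG, HBEGF, TGFA, BTC and EGF, ERBB3 and ERBB4 bind neuregulins, and ERBB2 has no known ligand of its own and acts as a partner of the other receptors. Ligand-bound receptors signal through RAS-ERK and PI3K-AKT, and ERK in turn switches on feedback inhibitors such as Sprouty proteins and dual specificity phosphatases. EGFR is commonly abundant in squamous carcinomas of the head and neck, where it is the target of therapeutic antibodies.

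The mature microRNAs are shown because they define the 3 treated groups. RefSeq places them, on build GRCh38.p14, on the minus strand of chromosome 15 at 70079387 to 70079408 (miR-629-3p), of chromosome 11 at 568112 to 568133 (miR-210-3p) and of chromosome 5 at 137647582 to 137647603 (miR-874-3p). Capitals mark the seed, bases 2 to 8, and no 2 of them share a seed.
miR-629-3p: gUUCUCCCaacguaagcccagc
miR-210-3p: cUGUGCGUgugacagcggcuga
miR-874-3p: cUGCCCUGgcccgagggaccga
The 7 letters that pair with each seed were searched in the sense sequence of the probes, which is the only transcript sequence the arrays give. GGGAGAA, the match of miR-629-3p, was in 0.747% of the 58201 probes and in 1 of the 18 member probes, that of EREG. ACGCACA (miR-210-3p) was in 0.131% of all probes and CAGGGCA (miR-874-3p) in 0.387%, and each was in 0 of the 18 member probes. The stretch of the EREG probe with the match, in capitals, lies on the plus strand of hg19 at chr4:75254009-75254038.
EREG: tgttcatatGGGAGAAgggggagtaatgac
A match of these letters is a description and no measured site, and the parts of the transcripts outside the probes were not searched.

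Values are log2 signals relative to the 75th percentile of each array, so that 0 is the level of that percentile and 1 unit is 2-fold. Between 41.8% and 49.8% of the probes of an array were well above background, with fewer on the NC arrays than on those of miR-210-3p or miR-629-3p, and no spot was saturated. All 8 squamous epithelial markers (KRT5, KRT14, KRT6A, KRT17, TP63, SFN, EPCAM and CDH1) were well above background on every array. Their summed signal was 606 and 642 times the 75th percentile with NC, 559 and 630 with miR-874-3p, 514 and 518 with miR-629-3p and 456 and 457 with miR-210-3p. Against NC the last 3 groups had 0 of 8, 3 of 8 and 4 of 8 called lower, beside 0.207%, 7.47% and 2.20% of all genes. Of 9 markers of leukocytes, endothelium, fibroblasts, melanocytes and hepatocytes, 4 to 6 were detected on an array with a summed signal of 3.78 to 6.09, and CD3E, DCN, MLANA and ALB were below the filter. Of the 5 tested against NC, 1 was called, VWF, an endothelial gene, higher by 0.90 with miR-629-3p (limma adjusted p = 0.0146), where 9.28% of all genes were called higher. PECAM1, another, was well above background on the miR-629-3p arrays only (adjusted p = 0.139), and COL1A1, a collagen of fibroblasts, was at least 4.87-fold above NC with miR-210-3p (adjusted p = 0.0606). Other markers of this list went down. At an unadjusted limma p under 0.05 with at least a 2-fold change, 1 of the 5 was higher and 1 lower with miR-210-3p (3.14% of all genes passed in either direction). With miR-874-3p 0 were higher and 1 lower (2.02%), and with miR-629-3p 0 were higher and 0 lower (5.26%). The part of these shifts in the results below was not tested. The slide held the miR-210-3p arrays beside those of miR-629-3p in one row and the NC arrays beside those of miR-874-3p in the other, so for miR-629-3p or miR-210-3p against NC or against miR-874-3p the row and the mimic cannot be told apart.

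None of the members passed the test against NC with any mimic, whereas EGFR, AREG and BTC were called between mimics. Each of these calls was lost without some single array and with the methods' t-test after adjustment. On its brightest probe EGFR was highest with miR-629-3p and lowest with miR-210-3p, and its other probes were not called. AREG was 1.94-fold above NC with miR-210-3p without passing the adjusted threshold, and BTC was highest with miR-874-3p. Of the 10 members, 7 (AREG, EREG, TGFA, BTC, EGFR, ERBB2 and ERBB3) had a probe well above background on all 8 arrays and entered the limma fit over 21283 genes. HBEGF was left out of it because 1 of its spots carried a flag for non-uniform pixels, and EGF and NRG1 because no group had a probe well above background on both of its arrays. At an adjusted p under 0.05 the members called against NC were 0 of 7 with miR-629-3p, where 16.8% of all genes were called, 0 of 7 with miR-210-3p (6.05% of all genes) and 0 of 7 with miR-874-3p (0.423% of all genes). At an unadjusted p under 0.05, 2 were higher with miR-629-3p (EGFR and ERBB3), where 18.2% of all genes were, and 0 lower (15.5%). With miR-210-3p 3 were higher (AREG, EREG and BTC, beside 16.5% of all genes) and 1 lower (EGFR, beside 9.50%), and with miR-874-3p 1 was higher (BTC, beside 7.86%) and 0 lower (8.52%). The study's rule, an unadjusted p under 0.05 with at least a 2-fold change, called 0 of 7 with each mimic, against 5.26%, 3.14% and 2.02% of all genes. The methods' t-test at an unadjusted 0.05 called 0, 2 and 1 of the 7 in that order of mimics, beside 27.2%, 22.4% and 9.00% of all genes, and 0 after Benjamini-Hochberg adjustment, where it called 0%, 0.00470% and 0% of all genes.

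**Figure D1:**
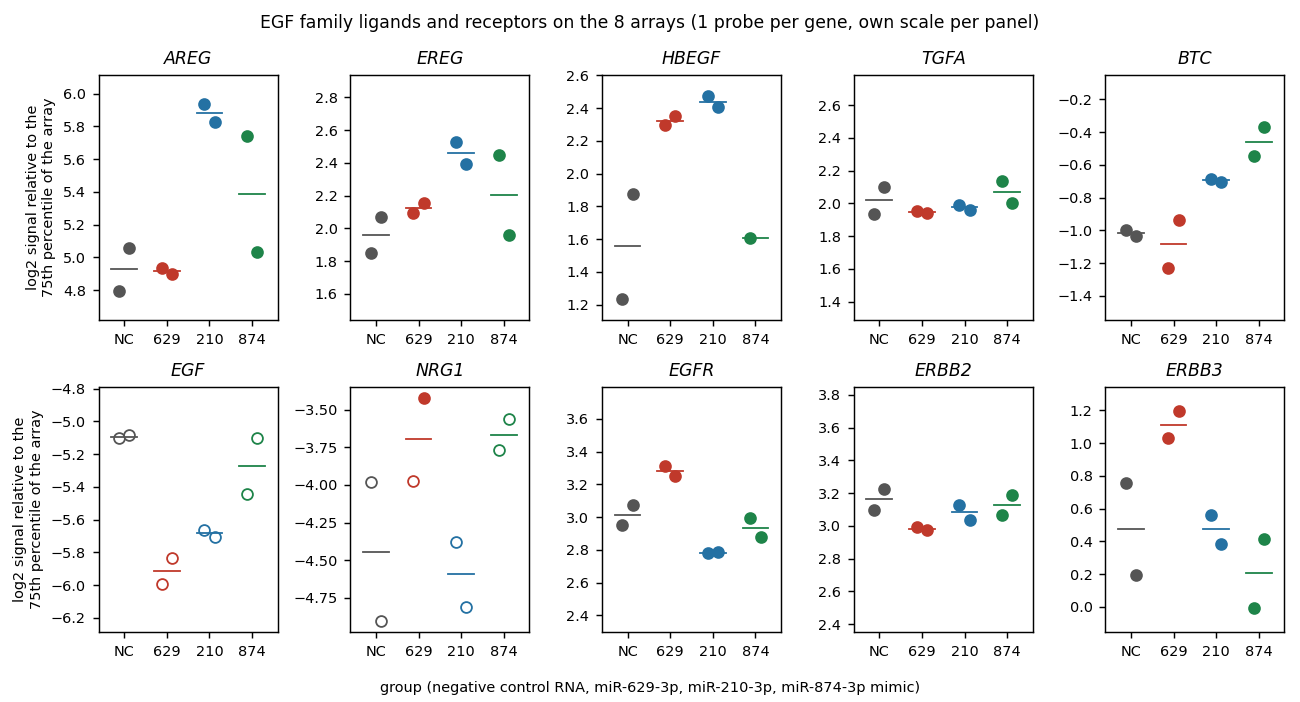
Log2 signal relative to the 75th percentile of the array (vertical axis, own scale per panel) of 1 probe per member on the arrays of NC and of the 3 mimics. Points are arrays (filled where well above background) and lines are group means. For HBEGF the flagged miR-874-3p spot is left out. The miR-210-3p arrays are the 2 highest for AREG and the 2 lowest for EGFR.

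AREG, the amphiregulin precursor and a ligand of EGFR, had the widest range between group means of the tested members. Its probe on chromosome 4 (hg19, 75320518 to 75320577, plus strand) read 4.80 and 5.06 with NC, 5.74 and 5.03 with miR-874-3p, 4.94 and 4.90 with miR-629-3p and 5.94 and 5.83 with miR-210-3p. Both miR-210-3p arrays lay above all others, and the 2 miR-874-3p arrays were 1 near the miR-210-3p level and 1 within the NC range. The difference from NC was 0.95 with miR-210-3p (SE 0.23, 95% interval 0.37 to 1.54, limma adjusted p = 0.0737), -0.01 with miR-629-3p (interval -0.59 to 0.57, adjusted p = 0.982) and 0.46 with miR-874-3p (interval -0.13 to 1.04, adjusted p = 0.399). The miR-210-3p difference passed the threshold without either miR-874-3p array (adjusted p = 0.0199 both times), with normexp background correction (0.0291), with a variance trend (0.0212) and among genes detected on all 8 arrays (0.0445). Whether a higher signal came from more AREG-expressing cells or from more RNA per cell cannot be told apart in such bulk samples, here and below.

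AREG was lower with miR-629-3p than with miR-210-3p by 0.96 (log2, SE 0.23, limma adjusted p = 0.0380), a comparison within 1 row of the slide. The call was lost with no filter on detection (limma adjusted p = 0.113) and with the replicate block (limma adjusted p = 0.0623). The methods' t-test also lost it (adjusted p = 0.0525). The second AREG probe, upstream at 75318293 to 75318352, read 3.57 and 3.92 with NC, 4.60 and 3.80 with miR-874-3p, 3.62 and 3.66 with miR-629-3p and 4.67 and 4.68 with miR-210-3p. Its 3 highest values were on the same arrays as those of the first probe, and it differed by -1.04 between miR-629-3p and miR-210-3p (adjusted p = 0.0441 among all probes). The call on the first probe was lost without any one of the miR-629-3p, miR-210-3p or NC arrays (adjusted p from 0.0575 to 0.155), with the difference at -1.02 to -0.91.

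EREG, the epiregulin precursor and a ligand of EGFR and ERBB4, was measured by 1 probe on chromosome 4 (hg19, 75254009 to 75254068, plus strand), the one shown above with a miR-629-3p seed match. It read 1.85 and 2.07 with NC, 2.45 and 1.96 with miR-874-3p, 2.10 and 2.16 with miR-629-3p and 2.53 and 2.39 with miR-210-3p. As for AREG, the 3 highest values were those of both miR-210-3p arrays and the first miR-874-3p array, and the lowest was that of the first NC array. The difference from NC was 0.50 with miR-210-3p (SE 0.18, interval 0.07 to 0.94, limma adjusted p = 0.148), 0.17 with miR-629-3p (interval -0.27 to 0.60, adjusted p = 0.553) and 0.24 with miR-874-3p (interval -0.19 to 0.68, adjusted p = 0.534), so none was called.

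BTC, betacellulin, another ligand of EGFR and ERBB4, was measured by 1 probe on the same chromosome (hg19, 75675838 to 75675897, minus strand) and had another order of the groups. It read -1.0 and -1.04 with NC, -0.55 and -0.37 with miR-874-3p, -1.23 and -0.94 with miR-629-3p and -0.69 and -0.70 with miR-210-3p. Both miR-874-3p arrays were above all others, the miR-210-3p arrays came next, and the NC arrays lay within the miR-629-3p range. The difference from NC was 0.56 with miR-874-3p (1.47-fold, SE 0.12, interval 0.27 to 0.85, limma adjusted p = 0.123), a comparison within 1 row of the slide, and 0.32 with miR-210-3p (interval 0.03 to 0.62, adjusted p = 0.164). With miR-629-3p, BTC was lower than with miR-874-3p by 0.63 (log2, SE 0.12, adjusted p = 0.0241) and differed from miR-210-3p by -0.39 (adjusted p = 0.0681). Without the first miR-629-3p array, the second miR-874-3p array or either miR-210-3p array the former call was lost (adjusted p from 0.0582 to 0.0978). That call was also lost with only the 2 groups compared (limma adjusted p = 0.112) and with the methods' t-test (adjusted p = 0.275). In the order miR-874-3p, miR-210-3p, NC, miR-629-3p no 2 neighbouring groups differed at an adjusted p under 0.05.

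The starts of AREG, EREG and BTC are shown because these ligand genes lie on the same arm of chromosome 4 and the data compare how they varied. Each is the 100 bases before the RefSeq start of transcription on GRCh38.p14, at chr4:74445036-74445135 (AREG, plus strand), chr4:74365045-74365144 (EREG, plus strand) and chr4:74794524-74794623 (BTC, minus strand), with motif matches in capitals.
AREG: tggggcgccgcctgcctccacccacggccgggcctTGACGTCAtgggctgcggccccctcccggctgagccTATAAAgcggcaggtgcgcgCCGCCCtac
EREG: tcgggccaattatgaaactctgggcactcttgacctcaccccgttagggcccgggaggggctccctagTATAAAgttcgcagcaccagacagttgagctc
BTC: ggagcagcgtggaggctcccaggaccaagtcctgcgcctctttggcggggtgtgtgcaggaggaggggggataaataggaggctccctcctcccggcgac
A TATA box, TATAAA, a cyclic AMP response element, TGACGTCA, and a GC box, GGGCGG, were searched for on both strands. The TATA box was found 29 to 24 bases before the start of AREG and 32 to 27 bases before that of EREG, and in 4.99% of 35116 promoter windows of the same length. The cyclic AMP response element was found in AREG alone of these genes (65 to 58 bases before the start, 1.17% of windows), as was the GC box on the opposite strand (9 to 4 bases before the start, 31.3% of windows). The matches did not overlap each other, and BTC held none of the motifs in this window. The arrays hold no measure of a factor's binding there.

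HBEGF, heparin-binding EGF-like growth factor, was higher on each array of miR-210-3p and of miR-629-3p than on the NC arrays but was not called. Its probe on chromosome 5 (hg19, 139713052 to 139713111, minus strand) read 1.24 and 1.88 with NC, 1.60 on the first miR-874-3p array, 2.30 and 2.35 with miR-629-3p and, for miR-210-3p, 2.48 and 2.41. The NC arrays stood further apart than the replicate arrays of miR-210-3p or miR-629-3p. In a fit to 21530 genes that left out the flagged spot, the difference from NC was 0.77 with miR-629-3p (SE 0.22, limma adjusted p = 0.0846), 0.88 with miR-210-3p (SE 0.22, adjusted p = 0.0931) and 0.05 with miR-874-3p (SE 0.27, adjusted p = 0.953), where the lone array was assumed to vary like the other groups. The flagged spot read 2.66. With it the miR-874-3p difference was 0.60 (SE 0.39, adjusted p = 0.495) and those with miR-629-3p and miR-210-3p were 0.82 (adjusted p = 0.209) and 0.92 (adjusted p = 0.206). This fit was chosen after the values were seen.

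TGFA, transforming growth factor alpha, was not called in any comparison. Its brighter probe on chromosome 2 (hg19, 70683472 to 70683531, minus strand) read 1.94 and 2.10 with NC, 2.14 and 2.0 with miR-874-3p, 1.95 and 1.94 with miR-629-3p and 1.99 and 1.96 with miR-210-3p, and each mimic overlapped NC. The intervals of the differences from NC ran from -0.29 to 0.15 with miR-629-3p, from -0.26 to 0.18 with miR-210-3p and from -0.17 to 0.27 with miR-874-3p (limma adjusted p = 0.617, 0.808 and 0.816). The second TGFA probe (70675319 to 70675378) was well above background on 4 arrays, both of miR-210-3p (-2.53 and -2.01), the first of miR-629-3p (-3.32) and the first of miR-874-3p (-2.55). On the NC arrays it read -2.94 and -3.20 and was not well above background. The dimmest signal well above background was higher on those arrays (-2.84 and -2.82) than on the first miR-629-3p array (-3.74). Detection thus does not place NC below that array, whose reading of -3.32 was lower than both NC values. EGF, the founding ligand of the family, had 1 probe on chromosome 4 (hg19, 110932689 to 110932748) that was well above background on 0 of 8 arrays, with values from -5.99 to -5.08. NRG1, a ligand of ERBB3 and ERBB4, had a pair of probes that were each well above background on 1 array only, the second miR-629-3p array (-3.42) and the second miR-210-3p array (-2.56). Neither gene was tested, and the arrays give only an upper bound for them.

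**Figure D2:**
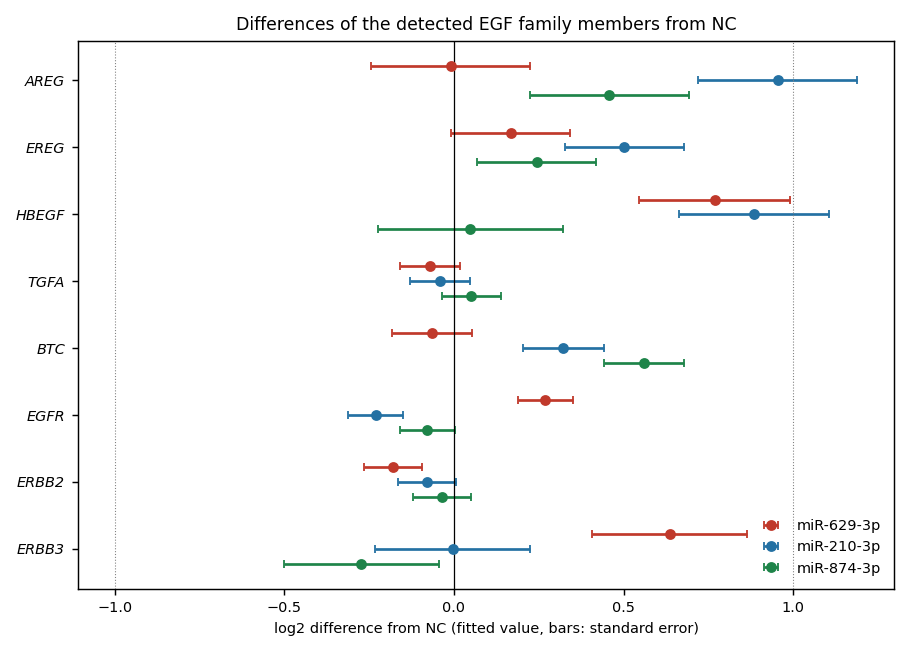
Fitted log2 difference from NC (horizontal axis) of the 8 members with a detected probe, for each mimic. Points are fitted values and bars standard errors, with HBEGF from the fit without its flagged spot. AREG and HBEGF reach 0.95 and 0.88 with miR-210-3p, and no point passes 1, the dotted line of a 2-fold change.

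EGFR, the receptor of most of these ligands, lay above NC with miR-629-3p and below it with miR-210-3p, and differed between these mimics. The probe for the full-length transcript NM_005228 on chromosome 7 (hg19, 55274841 to 55274900) read 2.95 and 3.07 with NC, 2.99 and 2.88 with miR-874-3p, 3.32 and 3.25 with miR-629-3p and 2.78 and 2.79 with miR-210-3p. The miR-629-3p arrays were above and the miR-210-3p arrays below all others, while those of NC and miR-874-3p overlapped. EGFR differed from NC by 0.27 with miR-629-3p (1.20-fold, SE 0.08, interval 0.07 to 0.47, limma adjusted p = 0.0763), by -0.23 with miR-210-3p (interval -0.43 to -0.03, adjusted p = 0.148) and by -0.08 with miR-874-3p (interval -0.28 to 0.12, adjusted p = 0.676). The miR-629-3p difference passed with normexp background correction (adjusted p = 0.0165) and with a variance trend (0.0345). EGFR was higher with miR-629-3p than with miR-210-3p by 0.50 (1.41-fold, SE 0.08, adjusted p = 0.0130) and than with miR-874-3p by 0.35 (1.27-fold, adjusted p = 0.0412). The first call was lost without any one of the 4 arrays it compares (adjusted p from 0.0608 to 0.0807) and the second without any one of the 8 arrays (0.0560 to 0.182). With all 8 arrays, 3 of 14 alternatives in the processing lost the first call and 6 of 14 the second (adjusted p up to 0.113 and 0.265). In the order miR-629-3p, NC, miR-874-3p, miR-210-3p no 2 neighbouring groups differed at an adjusted p under 0.05.

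The other EGFR probes are annotated to transcripts that encode short, soluble forms of the receptor. NM_201283 (55224558 to 55224617) read 0.52 and 0.68 with NC, 0.73 and 0.53 with miR-874-3p, 0.87 and 0.67 with miR-629-3p and 0.74 and 0.68 with miR-210-3p. NM_201282 (55231446 to 55231505) read -1.80 and -1.30 with NC, -1.27 and -1.48 with miR-874-3p, -1.20 and -1.22 with miR-629-3p and -1.56 and -1.65 with miR-210-3p. Neither was called between miR-629-3p and miR-210-3p, with differences of 0.06 (limma adjusted p = 0.781) and 0.39 (adjusted p = 0.166) among all probes. When the detected probes of each gene were averaged, the EGFR difference between these mimics was 0.32 (adjusted p = 0.113).

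ERBB2 was not called in any comparison, and the ERBB3 probes did not order the groups alike. The main ERBB2 probe on chromosome 17 (hg19, 37884829 to 37884888, the mean of 10 spots on each array) read 3.10 and 3.23 with NC, 3.06 and 3.19 with miR-874-3p, 2.99 and 2.97 with miR-629-3p and 3.13 and 3.04 with miR-210-3p. Only the miR-629-3p arrays lay wholly below NC, by 0.18 on average (interval of the difference -0.39 to 0.03, limma adjusted p = 0.209), and the other intervals were -0.29 to 0.13 with miR-210-3p and -0.25 to 0.18 with miR-874-3p. A second ERBB2 probe (37851136 to 37851195, ENST00000584014) read -1.01 and -0.94 with NC, -1.03 and -1.22 with miR-874-3p, -1.22 and -1.42 with miR-629-3p and -1.10 and -0.97 with miR-210-3p. Its miR-629-3p arrays were also wholly below NC, by a difference of -0.34 (adjusted p = 0.10 among all probes).

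ERBB3, the neuregulin receptor with an impaired kinase, was represented by its brightest probe, which is annotated to NM_001005915, a short transcript for a secreted form (chromosome 12, hg19, 56479217 to 56479276). It read 0.76 and 0.20 with NC, 0.00 and 0.41 with miR-874-3p, 1.03 and 1.20 with miR-629-3p and 0.56 and 0.39 with miR-210-3p. The miR-629-3p arrays were above all others, while the remaining groups overlapped. The difference from NC was 0.64 with miR-629-3p (SE 0.23, interval 0.07 to 1.20, limma adjusted p = 0.115), and that between miR-629-3p and miR-874-3p was 0.91 (adjusted p = 0.050, not under the threshold). The latter passed in 9 of 22 alternatives, with adjusted p from 0.0168 with a variance trend, and the difference from NC passed in 1, the mean of probes (0.50, adjusted p = 0.0487). A probe of the full-length transcript NM_001982 (56496160 to 56496219) read -0.54 and -0.63 with NC, -1.09 and -0.54 with miR-874-3p, -0.78 and -0.53 with miR-629-3p and -1.39 and -1.17 with miR-210-3p. Here the miR-210-3p arrays were below all others, by -0.69 against NC (adjusted p = 0.105 among all probes), and miR-629-3p differed from NC by -0.07 (adjusted p = 0.842). On this probe miR-629-3p minus miR-874-3p was 0.16 (limma adjusted p = 0.634 among all probes), where the brightest probe gave 0.91. Under the alternatives the gene's difference between these mimics ran down to 0.27. A further NM_001982 probe (56482380 to 56482439) was well above background on 4 arrays, both of miR-629-3p (-2.86 and -2.83), the first of miR-210-3p (-3.02) and the first of miR-874-3p (-2.25). On the NC arrays it read -3.67 and -3.91 and was not well above background. The dimmest signal well above background was -2.84 and -2.82 there, about the miR-629-3p level, so detection gives no fold. The mean of probes that passed against NC includes this probe. Its miR-629-3p minus miR-874-3p difference was -0.26 (limma adjusted p = 0.505 among all probes).

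**Figure D3:**
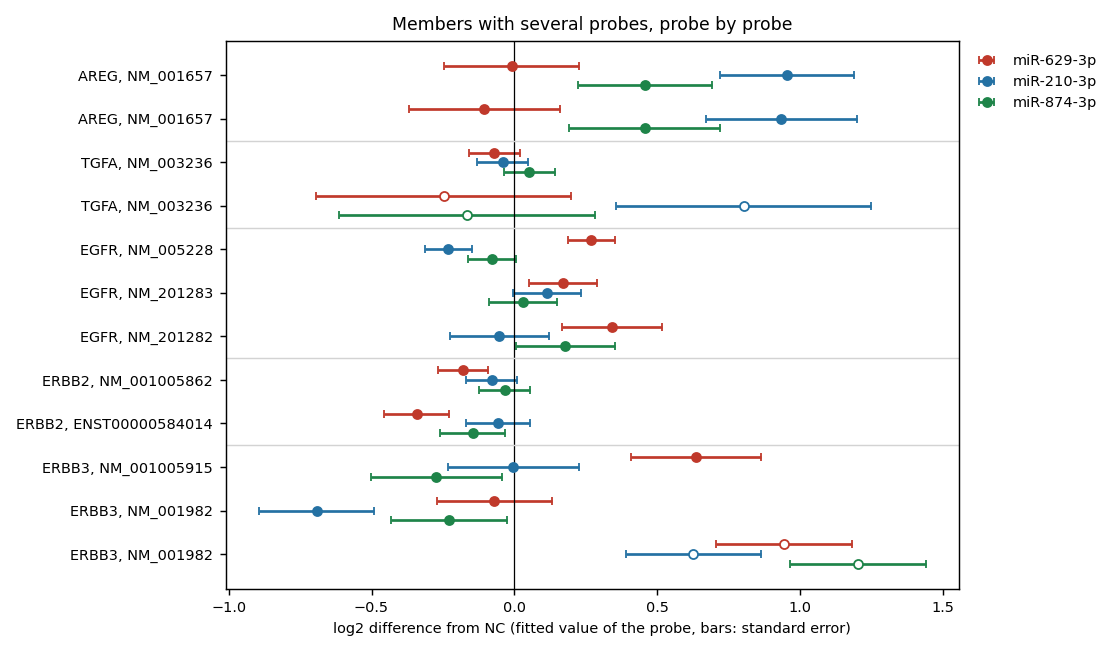
Fitted log2 difference from NC (horizontal axis) of each probe of the members with several probes above the filter, labelled by gene and annotated transcript, for the 3 mimics. Points are fitted values (open where the probe was well above background on fewer than 8 arrays) and bars standard errors. Both AREG probes place miR-210-3p highest, at 0.95 and 0.93, while the ERBB3 probes place miR-629-3p at 0.64, -0.07 and 0.94. The last of these is from a probe that was not well above background on the NC arrays.

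Across the 4 groups, the F test of the same fit called 2 of 7 members, EGFR (F = 13.4, limma adjusted p = 0.0315) and BTC (F = 12.1, adjusted p = 0.0361), where 25.2% of all genes were called. AREG (F = 7.60, adjusted p = 0.0664) and ERBB3 (F = 5.72, adjusted p = 0.0966) came next, followed by EREG (0.225), ERBB2 (0.384) and TGFA (0.641). Between mimics, AREG and EGFR were called between miR-629-3p and miR-210-3p (2 of 7, with 22.6% of all genes called), BTC and EGFR between miR-629-3p and miR-874-3p (2 of 7, 16.2% of all genes) and 0 of 7 between miR-210-3p and miR-874-3p (9.80% of all genes, 0 members also at an unadjusted p under 0.05, which 28.3% of all genes passed in limma and 17.4% in the methods' t-test). These shares are near those of all genes and are no result about the family as a whole. The arrays did not overlap between a mimic and NC for 4 of 7 members with miR-629-3p (65.5% of all genes did not overlap), for 4 members with miR-210-3p (61.5%) and for 1 member with miR-874-3p (43.6%). Between mimics they did not overlap for 7 of 7 members for miR-629-3p and miR-210-3p (70.2% of all genes), 6 for miR-629-3p and miR-874-3p (60.8%) and 4 for miR-210-3p and miR-874-3p (57.9%).

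The genes whose pattern over the 8 arrays was most like that of a member were listed for the 3 members with the largest F, as a description without a test. For EGFR they were B4GALT7, HECTD3 and C5orf38 (Pearson r of 0.99 for each), for BTC they included TNFRSF10D and RB1CC1 (r of 0.96 and 0.95), and for AREG they were the transcript ENST00000566307, C11orf73 and EEF2KMT (r of 0.99 for each). The points share the 8 arrays and their scaling, and the genes were picked from 21283.

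Of the other family genes, NRG2 was the only one called, and only with miR-629-3p. NRG2, a neuregulin, read -3.62 and -4.51 with NC, -3.69 and -2.75 with miR-874-3p, -2.11 and -2.13 with miR-629-3p and, for miR-210-3p, -3.04 and -2.76. It was well above background on both miR-629-3p arrays and 1 miR-210-3p array and on no NC array, so it was at least 1.63-fold higher with miR-629-3p than with NC (limma adjusted p = 0.0299). The bound sets the miR-629-3p mean against, on each NC array, the dimmest signal well above background or the probe's own signal where that was higher. The call was lost without either miR-629-3p array, either miR-210-3p array or the second NC array (adjusted p from 0.0610 to 0.132), and with normexp background correction (a difference of 0.20, adjusted p = 0.0765), only the 2 groups compared (0.0515), the replicate block (0.0610) and the methods' t-test (0.183). A second NRG2 probe was well above background on 1 array, the second NC array (-1.80). NRG4, detected on 7 arrays, was not called with any mimic (differences from NC of 0.12 for miR-629-3p, 0.40 for miR-210-3p and 0.36 for miR-874-3p), and EPGN, ERBB4 and NRG3 were well above background on 0 arrays.

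Of the other family genes and the pathway genes upstream and downstream of the receptors, more were called higher than lower against NC with miR-629-3p and miR-210-3p. The 6 lists together hold 103 genes that are no members, of which 96 were tested. The lists were chosen with earlier results of these data known, so their counts are a description and no independent test. With miR-629-3p 19 were called higher and 5 lower, where 9.28% and 7.47% of all genes were. With miR-210-3p 11 were called higher and 3 lower (3.85% and 2.20% of all genes), and with miR-874-3p 1 higher and 1 lower (0.216% and 0.207%). The median difference from NC was 0.11, 0.13 and -0.02 in that order, beside 0.02, 0.05 and -0.01 over all genes tested. The comparisons share the NC arrays. The total of calls fell without single arrays, for miR-629-3p from 24 to 3 and 4 without a miR-629-3p array, 13 and 6 without an NC array and 9 without either miR-210-3p array, and for miR-210-3p from 14 to 0 and 1 without a miR-210-3p array, 4 and 5 without an NC array and 5 without either miR-629-3p array, while it was 22 without either miR-874-3p array. For miR-874-3p it was 0 to 2. The methods' t-test called 0 of the 96 after adjustment with each mimic. At an unadjusted 0.05 it called 32, 32 and 12 in that order of mimics, beside 27.2%, 22.4% and 9.00% of all genes.

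ERK-responsive transcripts, which ERK signalling is known to raise, had 8 higher and 1 lower of 20 with miR-629-3p, 4 higher with miR-210-3p and 1 higher with miR-874-3p, with medians of 0.38, 0.26 and 0.04. Of all genes, 9.28%, 3.85% and 0.216% were called higher and 7.47%, 2.20% and 0.207% lower, with medians of 0.02, 0.05 and -0.01. Without single arrays the list had 0 to 11 calls with miR-629-3p and 0 to 7 with miR-210-3p. EGR1, an immediate-early zinc finger factor, read 4.49 and 4.82 with NC, 4.94 and 5.0 with miR-874-3p, 5.87 and 5.63 with miR-629-3p and 5.49 and 5.62 with miR-210-3p. It rose by 1.1 with miR-629-3p (SE 0.14, limma adjusted p = 0.0107) and by 0.90 with miR-210-3p (adjusted p = 0.0301). EPHA2, an ephrin receptor, read 0.77 and 0.50 with NC, 0.65 and 0.87 with miR-874-3p, 1.70 and 1.73 with miR-629-3p and 0.93 and 0.84 with miR-210-3p, and rose by 1.08 with miR-629-3p (SE 0.12, adjusted p = 0.00805). FOSB, a subunit of the AP-1 factor, was well above background with miR-210-3p (-2.49 and -2.75) and miR-629-3p (-2.91 and -2.81) and on neither array of NC (-3.74 and -3.86) or miR-874-3p (-3.43 and -3.46). It was at least 1.15-fold higher with miR-210-3p than with NC (adjusted p = 0.0105), while for miR-629-3p (adjusted p = 0.00822) the NC detection limit was as high as the measured level and gives no fold. Of the other calls, named after their values were seen, IER2 rose by 0.80 with miR-210-3p and 0.76 with miR-629-3p, ETV5 by 0.72 and 0.46, PHLDA1 by 0.85 and IER3 by 0.79 with miR-629-3p, and PLAUR, the urokinase receptor, fell by 0.93 with miR-629-3p. DUSP1 rose by 0.33 with miR-629-3p and by 0.71 with miR-874-3p.

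Feedback inhibitors and genes of receptor turnover had 7 higher and 1 lower of 25 with miR-629-3p, 4 higher and 1 lower with miR-210-3p, and 1 lower with miR-874-3p. Their medians were 0.23, 0.13 and 0.04, and the shares and medians of all genes are those given for the ERK-responsive transcripts. Without single arrays 2 to 7 were called with miR-629-3p and 0 to 8 with miR-210-3p. SPRY2, a Sprouty protein that restrains RAS-ERK signalling, read 1.50 and 1.41 with NC, 1.43 and 1.23 with miR-874-3p, 2.43 and 2.49 with miR-629-3p and 1.97 and 1.99 with miR-210-3p. It rose by 1.01 with miR-629-3p (SE 0.09, limma adjusted p = 0.00547) and by 0.53 with miR-210-3p (adjusted p = 0.0371). SH3KBP1, an adaptor of CBL in the internalisation of EGFR, read 3.48 and 3.44 with NC, 3.54 and 3.38 with miR-874-3p, 4.80 and 4.57 with miR-629-3p and 3.83 and 3.64 with miR-210-3p, and rose by 1.23 with miR-629-3p (SE 0.12, adjusted p = 0.00573). Among the rest, named after their values were seen, the ERK phosphatases DUSP4 and DUSP6 rose by 0.63 and 0.37 with miR-629-3p and by 0.71 and 0.77 with miR-210-3p. SOCS5, CBLB and RNF41, a ubiquitin ligase of ERBB3, rose by 0.87, 0.61 and 0.50 with miR-629-3p, PTPN1 rose by 0.53 with miR-210-3p, CBLC fell by 0.61 with miR-210-3p and 0.56 with miR-629-3p, and SOCS3 fell by 0.65 with miR-874-3p.

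**Figure D4:**
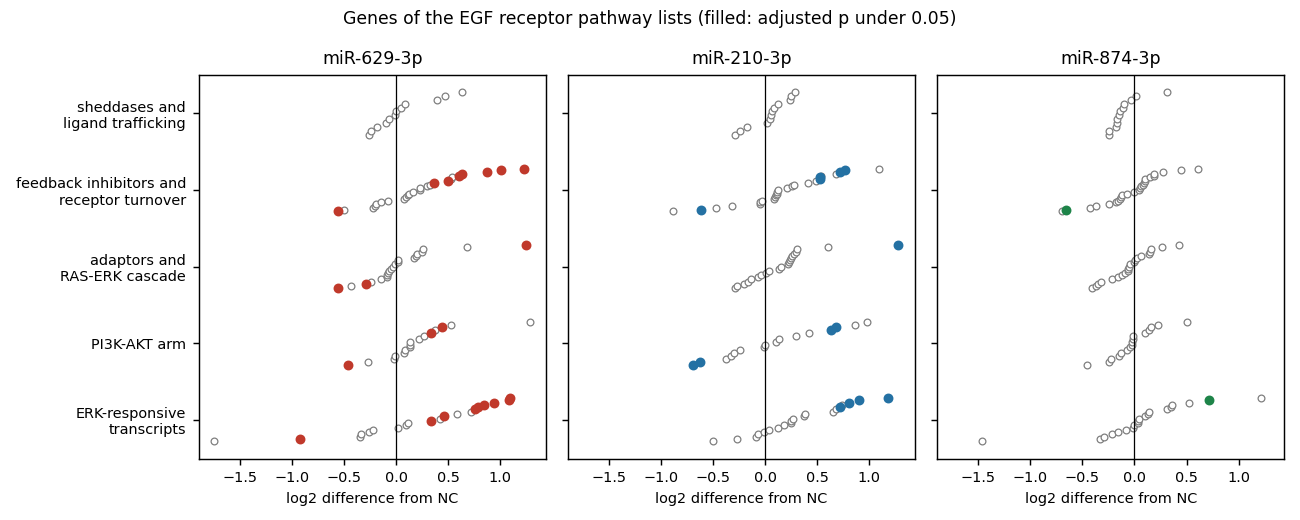
Fitted log2 difference from NC (horizontal axis) of every tested gene of 5 pathway lists (rows), with 1 panel per mimic. Each point is a gene, filled where the adjusted p is under 0.05, ordered within its row by value. The ERK-responsive row holds 9 filled points for miR-629-3p, 4 for miR-210-3p and 1 for miR-874-3p, and the sheddase row holds none.

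The adaptors and the RAS-ERK cascade, 21 genes, had 1 higher and 2 lower with miR-629-3p, 1 higher with miR-210-3p and 0 calls with miR-874-3p (by limma at an unadjusted p under 0.05, 1 higher and 2 lower with the last, and 3 by the methods' t-test). Of all genes, 9.28%, 3.85% and 0.216% were called higher and 7.47%, 2.20% and 0.207% lower in that order of mimics. GAB1 and GAB2, docking proteins that pass receptor signals to PI3K, were not well above background on the NC or miR-874-3p arrays. GAB1 read -2.0 and -2.30 with miR-629-3p, at least 1.61-fold above NC (limma adjusted p = 0.0274). GAB2 read -1.39 and -1.59 with miR-210-3p, at least 2.42-fold above NC (adjusted p = 0.0273), and -2.38 and -1.79 with miR-629-3p (adjusted p = 0.0680). NRAS and BRAF fell by 0.55 and 0.28 with miR-629-3p. Without single arrays this list had 0 to 4 calls with miR-629-3p and 0 to 2 with miR-210-3p. Of 16 genes of the PI3K-AKT arm, 2 were higher and 1 lower with miR-629-3p, 2 higher and 2 lower with miR-210-3p and 0 called with miR-874-3p. With miR-874-3p limma and the methods' t-test also gave 0 at an unadjusted p under 0.05. Of all genes, 7.86% were higher and 8.52% lower there in limma, and 9.00% passed the t-test. RHEB, the activator of mTOR, rose by 0.44 and 0.68 with the first 2 mimics, PIK3R2 rose by 0.33 with miR-629-3p, and RICTOR fell by 0.63 with miR-210-3p. Without single arrays 0 to 4 of the arm were called with miR-629-3p and 0 to 5 with miR-210-3p. These genes and NRAS and BRAF were named after their values were seen.

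The 12 tested sheddases and ligand trafficking genes, which free or carry the ligands, had 0 calls with each mimic by limma. At an unadjusted p under 0.05 they had 1 higher and 2 lower with miR-629-3p, beside 18.2% and 15.5% of all genes. With miR-210-3p 1 was higher and 1 lower (16.5% and 9.50%), and with miR-874-3p 1 higher and 2 lower (7.86% and 8.52%). The methods' t-test gave 3, 2 and 2 there, beside 27.2%, 22.4% and 9.00% of all genes, and 0 after adjustment. Without single arrays limma called 0 or 1 of them with miR-629-3p and 0 with the others. ADAM17, the main sheddase of AREG, differed from NC by -0.07 for miR-629-3p, 0.29 for miR-210-3p and -0.04 for miR-874-3p (limma adjusted p = 0.594, 0.102 and 0.874), and ADAM10, the main sheddase of BTC, by -0.01, -0.24 and -0.10 in the same order (adjusted p = 0.966, 0.265 and 0.731). Both were named after their values were seen.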

How the data were processed

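Gene expression in SAS cells was measured on 8 Agilent SurePrint G3 Human GE v3 arrays, 2 for each of 4 groups taken from the sample labels. Each array's scanner output from Agilent Feature Extraction 11.5.1.1 was deposited, and its intensity values were background-subtracted and detrended by the authors' software without normalization across arrays. A deposited log2 table of the same arrays states no scale. Set against the intensities, each of its columns was the log2 signal minus about the 75th percentile (column medians -3.68 to -3.36), and it served as an alternative. Authors' comparisons were not used.

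Here log2 signals were centred on each array's 75th percentile over gene probes, and outlier spots (87 to 346 of 60901) were left out. A gene was tested if one of its probes had values on all 8 arrays and, in at least 1 group, was on each array well above background. Its brightest such probe by mean represented it, which left 21283 genes. Its signal, relative to background, and the 2 arrays per group limit the precision. All 8 arrays entered 1 fit without covariates in limma 3.58.1 (lmFit, eBayes) under R 4.3.3, which had 4 residual and 1.68 prior degrees of freedom. All adjusted p-values are Benjamini-Hochberg values over all genes tested (or all probes, where said), and genes were called under 0.05. Intervals are at 95%. On simulated data with independent noise, the fit was checked only for returning shifts of known size. This does not bear on the slide row or on whether the replicates are technical. Probe positions are those of the array's annotation on hg19, for which no gene models were used here, so exons and UTRs are not given. microRNA and promoter sequences are RefSeq's on GRCh38.p14.

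Members and gene lists were chosen with earlier results of these data known. All members were named. Of the pathway lists the rule named genes called with at least a 2-fold fitted change and both arrays beyond both NC arrays, at most 4 per list with the largest change, and all 5 other family genes. A few genes that the rules or calls name are not reported here by name, but stay in the counts. The alternatives were normexp (offset 50), quantile normalization, median centring, the deposited table, outlier spots kept, floored signals, other detection filters, other probe rules, only the 2 groups compared, a variance trend, the methods' t-test and ANOVA, a block for the replicate number, and each array left out.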

Additional observations from a re-analysis of the deposited data

How the results depend on the processing

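Of 930 member values under the alternatives, 839 kept their direction and their side of the threshold, 36 lost it, 24 gained it and 31 changed sign. The cause was not tested. Members called across the groups (2) became 1 with no filter on detection, with the mean of probes and with the methods' ANOVA, 4 with a variance trend, and 0 to 3 without single arrays. Calls between mimics (4) became 2 with no filter, 0 with the methods' t-test and 0 to 4 without single arrays. Members called against NC (0) became 1 with miR-210-3p under normexp, detection on all 8 arrays and the trend (0 to 1 without single arrays), and 1 with miR-629-3p under normexp, no filter, the mean of probes and the trend. Pathway calls with miR-210-3p (14) became 24 with normexp, 22 with the trend, 0 with no filter, with only the 2 groups compared and with the methods' t-test, and 0 to 22 without single arrays. Those with miR-629-3p (24) became 0 with the methods' t-test and 3 to 28 without single arrays. Those with miR-874-3p (2) became 4 with normexp and the trend, 1 with every probe in the fit, 0 with no filter, only the 2 groups compared and the methods' t-test, and 0 to 2 without single arrays.

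With the replicate number as a block, members called across the groups became 0 and between mimics 2, and pathway calls 11 for miR-629-3p, 5 for miR-210-3p and 0 for miR-874-3p. The deviations of same-numbered arrays correlated between -0.11 and 0.03. The labels give only the numbers, so whether same-numbered arrays shared a culture or preparation is not known.

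The sign changes were in member values that were not called. AREG with miR-629-3p against NC was 0.0466 with normexp, 0.0385 with quantile normalization, 0.0376 with the deposited values and 0.0380 with outlier spots kept, and -0.141 to 0.121 without single arrays. With the mean of probes, the differences from NC were 0.0430 for EGFR, 0.234 for ERBB3 and -0.0571 for TGFA with miR-874-3p and 0.381 for TGFA with miR-210-3p, and miR-210-3p minus miR-874-3p was 0.0219 for ERBB2, -0.257 for ERBB3 and 0.438 for TGFA. With outlier spots kept, ERBB2 with miR-874-3p against NC was 0.0695 and ERBB3 with miR-210-3p 0.0327 (0.0326 with the deposited values). TGFA between miR-629-3p and miR-210-3p was 0.0028 with normexp and 0.0016 with quantile normalization. Without single arrays the values with a change of sign ran, against NC, from -0.210 to 0.0796 for BTC with miR-629-3p, from -0.100 to 0.0310 for ERBB2 with miR-874-3p, from -0.284 to 0.278 for ERBB3 with miR-210-3p and from -0.554 to 0.0084 with miR-874-3p, and for TGFA from -0.122 to 0.0398 with miR-210-3p, from -0.152 to 0.0102 with miR-629-3p and from -0.0292 to 0.133 with miR-874-3p. They ran from -0.321 to 0.166 for EREG between miR-629-3p and miR-874-3p and from -0.108 to 0.0181 for ERBB2 between miR-210-3p and miR-874-3p.

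Of 40 pathway calls, 420 of 555 values under the alternatives with all arrays and 134 of 320 without single arrays stayed called in the same direction, and 1 changed sign, FOSB with miR-629-3p at -0.0335 with floored signals. With each alternative other than the methods' t-test, SPRY2 and SH3KBP1 remained called with miR-629-3p.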
